A study of Mus musculus with 6 samples.

Results

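Lysosomal enzymes and membrane proteins were described in whole mouse kidney as a module of 45 genes. The module holds acid hydrolases, proteins of the lysosomal membrane, lysosomal lipid-binding proteins, the transcription factor Tfeb and the granulin precursor Grn. A gene was included where the RefSeq transcript named for a probe mapped to one of these symbols. All 45 genes were found, of 23785 gene symbols on the array. They were chosen by name and function, not by their values, although earlier results of these data were known when the list was made.

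Expression was measured on 6 Agilent 1-colour arrays with Cy3-labelled total RNA, 3 arrays labelled wild-type (WT) and 3 labelled Pck1-CKO. Pck1 codes for phosphoenolpyruvate carboxykinase of the cytosol, which catalyses an early step of gluconeogenesis. The Pck1-CKO genotype is Pck1 flox/flox/γGT-Cre tg/+, in which a γ-glutamyl transferase promoter directs Cre to the renal proximal tubule, and the series title links the model to albuminuria. Both groups are C57BL/6J mice of 32 weeks. The WT animals are littermates of the same age and sex as the Pck1-CKO animals, and the sex is not given. By the labels, the breeding gave 3 kinds of control: mice homozygous for the floxed allele (Pck1 flox/flox), mice heterozygous for it (Pck1 flox/+) and heterozygotes that also carry the transgene (Pck1 flox/+/γGT-Cre tg/+), so controls can carry floxed alleles or the Cre transgene. Which of these the WT arrays hold is not stated. Nothing in the labels ties each array to a different mouse, so the p-values cover the spread between samples, which may be technical. All arrays lay on 1 slide, the WT arrays in one row and the Pck1-CKO arrays in the other, and the effects of row and of genotype cannot be told apart.

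Lysosomes are acidic organelles in which proteins, glycans, lipids and nucleic acids are broken down. Most of their soluble hydrolases receive a mannose 6-phosphate tag in the Golgi, which sorts them to the lysosome, and the products leave through transporters of the limiting membrane. In the kidney the proximal tubule takes up filtered proteins such as albumin through megalin and cubilin and degrades them in its lysosomes. Tfeb and its relatives of the MiT/TFE family bind the CLEAR motif, an E-box with the core CACGTG, in promoters of many lysosomal genes.

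Because the CLEAR motif is known from promoters of many lysosomal genes, promoter windows of the members were searched for it. The windows are those of RefSeq on GRCm38.p6, from 250 bases before to 50 bases after a gene's start. Of the 45 members 40 had a window, 7 of them several, which gave 49 windows. The members without one were Ctsb, Galns, Ctsh, Asah1 and Npc1. The motifs searched were CACGTG, TCACGTGA and the full CLEAR palindrome, which is TCACGTGA with a G before it and a C after it, each of which reads the same on both strands and holds the shorter one inside it. CACGTG was present in 14 of 49 member windows (28.6%), against 7.15% of 32851 windows of all genes. TCACGTGA was present in 5 of 49 (10.2%), against 0.974% of all windows. The full palindrome was present in 1 of 49 (2.04%), against 0.326% of all windows. These shares are descriptions without a test, of a motif already known from lysosomal promoters, and a match is not a binding site.

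The members with the longer motifs, the member with the most cores and Ctsl, the member with the lowest log2 change, are shown with their stretches of promoter. Capitals mark the longest motif that matched at each place. The core of Cln3, a lysosomal membrane protein, lies 121 bases before the start within the longest motif and 149 bases before it in a short one. Ctsa (cathepsin A), Ctsd (cathepsin D), Gla (alpha-galactosidase A) and Mcoln1 (the calcium channel mucolipin-1) hold TCACGTGA. Lamp1, an abundant glycoprotein of the lysosomal membrane, holds 4 cores within 61 bases of its start.
Cln3, chr7:126583330-126583405, minus strand: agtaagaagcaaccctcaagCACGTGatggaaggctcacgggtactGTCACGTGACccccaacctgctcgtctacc
Ctsa, chr2:164833740-164833772, plus strand: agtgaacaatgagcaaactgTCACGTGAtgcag
Ctsd, chr7:142387899-142387946, minus strand: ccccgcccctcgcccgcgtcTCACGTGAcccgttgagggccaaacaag
Gla, chrX:134601173-134601253, minus strand: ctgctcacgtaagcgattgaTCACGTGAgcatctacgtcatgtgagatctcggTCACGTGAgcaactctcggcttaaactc
Mcoln1, chr8:3500428-3500500, plus strand: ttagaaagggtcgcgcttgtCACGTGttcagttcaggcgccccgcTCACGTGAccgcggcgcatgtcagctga
Lamp1, chr8:13159080-13159160, plus strand: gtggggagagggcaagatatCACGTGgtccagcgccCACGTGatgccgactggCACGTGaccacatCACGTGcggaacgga
Ctsl, chr13:64370731-64370770, minus strand: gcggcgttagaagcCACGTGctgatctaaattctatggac

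For contrast, the 100 bases before the start are shown for Gusb (beta-glucuronidase) and Ctsc (cathepsin C), the members with the lowest p-values for higher signal in Pck1-CKO. Neither window holds CACGTG, which says only that these letters are absent from it.
Gusb, chr5:130003050-130003149, minus strand: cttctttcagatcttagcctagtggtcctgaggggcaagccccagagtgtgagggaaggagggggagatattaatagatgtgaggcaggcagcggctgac
Ctsc, chr7:88277985-88278084, plus strand: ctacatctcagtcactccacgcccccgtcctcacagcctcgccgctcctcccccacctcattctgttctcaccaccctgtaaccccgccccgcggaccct

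Facts of the whole series bear on every value. Between 37116 and 38708 of 56605 probes were well above background on an array, and 0 spots were saturated. Signals are given as normalised log2 signal, the log2 of the processed signal minus the array's 75th percentile. A log2 change is the Pck1-CKO mean minus the WT mean, with its standard error from limma's fit to all 17136 genes tested, and a gene passed at a Benjamini-Hochberg adjusted p under 0.05. The targeted gene did not show a lower signal in the arrays labelled Pck1-CKO. Its 1 probe read 6.29, 6.32 and 5.63 on the WT arrays against 6.44, 6.60 and 6.90 on the Pck1-CKO arrays, a log2 change of 0.56 ± 0.22 (SE, n = 3 per group; limma adjusted p = 0.152) for Pck1. The sources used here do not say whether that probe lies inside the deleted part, and outside it the signal would check nothing. In whole-kidney RNA, fewer cells of a type and less RNA per cell cannot be told apart.

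The lysosomal genes as a group did not move in one direction between the groups. Of the 45 members 3 rose (Gusb, Ctsc and Acp5), 1 fell (Ctsa) and 41 did not pass the test. That is 8.89% of the members, beside 8.04% of all genes tested (4.34% higher and 3.7% lower), so the share of members called lies near the background. The median log2 change was -0.00031 over the members and 0.0091 over all genes, with 22 members above 0 and 23 below. The median size of a change, regardless of sign, was 0.11 for the members and 0.12 for all genes. All members were well above background on all 6 arrays.

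Changes of members ran from -0.50 (Ctsl) to 0.52 (Gusb), 38 of 45 were smaller than 0.25 in size, and 2 of 45 reached 0.5, beside 6.92% of all genes. The 3 Pck1-CKO arrays lay wholly above the 3 WT arrays for 12 members and wholly below them for 13. Together these are 55.6% of the members, beside 38.3% of all genes. At an unadjusted p under 0.05 there were 10 members on each side, 44.4% of the members beside 31.2% of all genes. The members thus spread to both sides of 0 by small amounts. Without WT 1, WT 2, Pck1-CKO 1 or Pck1-CKO 2 no member passed limma's adjusted threshold, while 12 to 13 had an unadjusted p under 0.05. Calls over all genes also fell in those 4 fits, to between 9 and 39 in a direction.

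**Figure D1:**
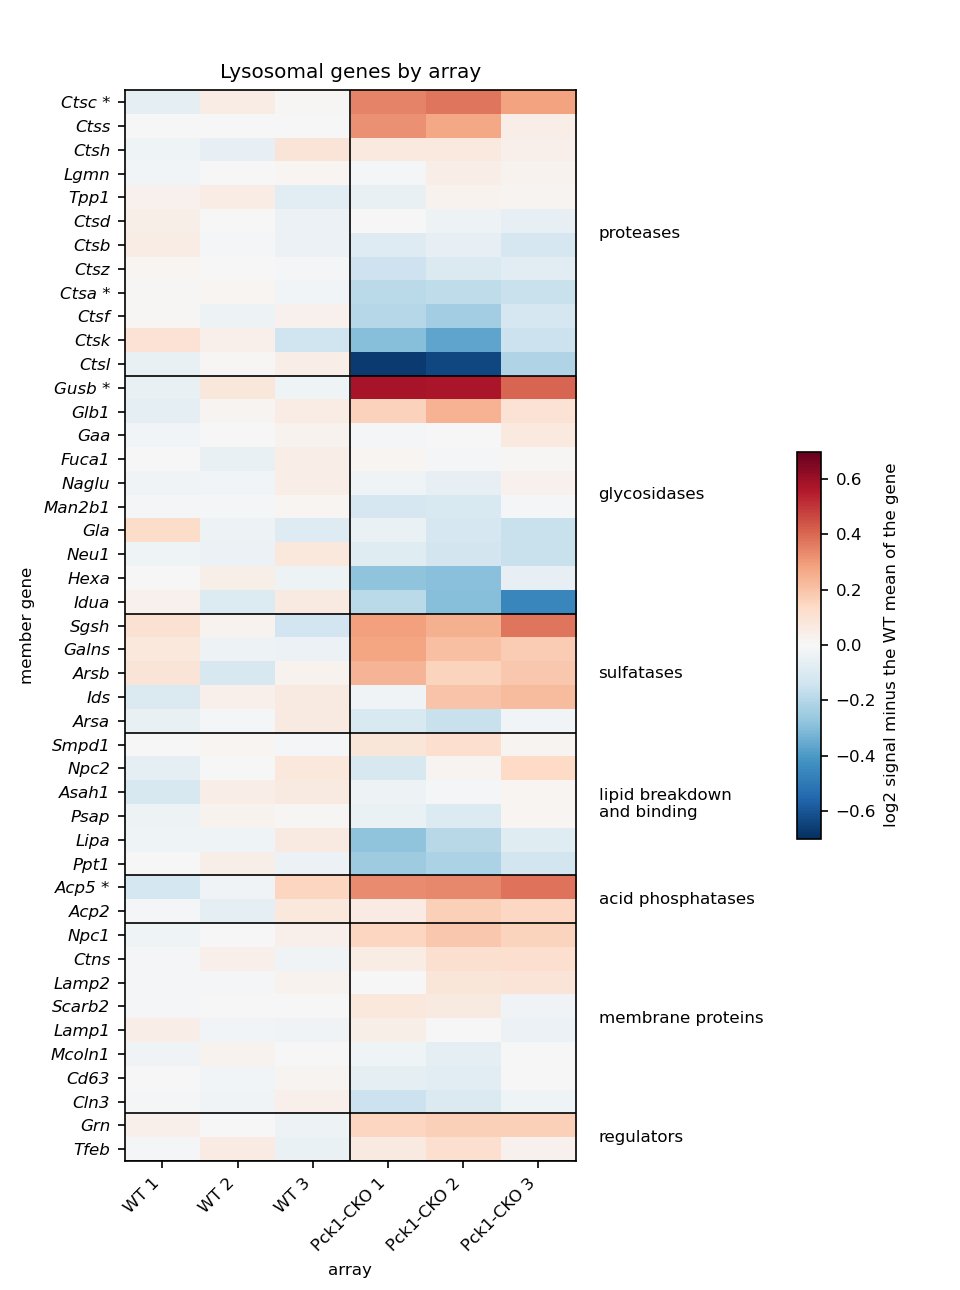
Normalised log2 signal of each of the 45 members on each of the 6 arrays, minus the mean of the 3 WT arrays for that gene, in colour from blue (lower) to red (higher), with genes grouped by role and a star at members with adjusted p under 0.05. Proteases and glycosidases hold both red and blue rows in the Pck1-CKO columns, the deepest red being Gusb (log2 change 0.52) and the deepest blue Ctsl (-0.50), for which Pck1-CKO 3 is paler than the other Pck1-CKO arrays.

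**Figure D2:**
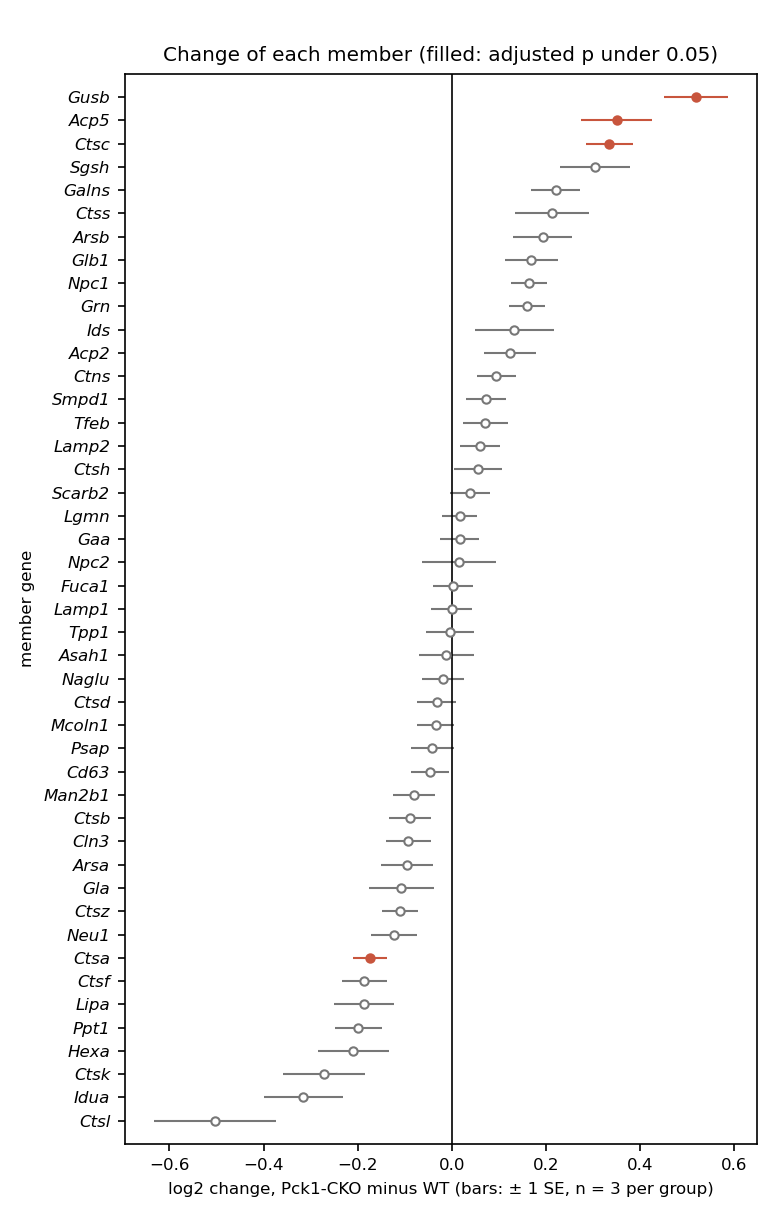
Log2 change of each member, Pck1-CKO minus WT, sorted by size, with bars of ± 1 SE (n = 3 arrays per group) and filled points for an adjusted p under 0.05. The points run evenly through 0, with 22 members above it and 23 below, and the filled points are Gusb, Acp5, Ctsc and Ctsa.

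The proteases were the role with members called in both directions. Of 12 proteases 1 rose and 1 fell, the median log2 change was -0.060, and 8 of 12 were below 0. The called share was 16.7%, beside 8.04% of all genes. At an unadjusted p under 0.05 there were 2 above and 5 below, 58.3% of the proteases beside 31.2% of all genes. Ctsc, cathepsin C, is the dipeptidyl peptidase that activates granule serine proteases. The WT arrays read 0.32, 0.43 and 0.39 and the Pck1-CKO arrays 0.73, 0.76 and 0.67. The groups did not overlap, and the log2 change of 0.34 ± 0.05 (SE, n = 3 per group; limma adjusted p = 0.0283) is 1.26-fold. Ctsa, cathepsin A, is a serine carboxypeptidase that also protects beta-galactosidase and neuraminidase in a complex. The WT arrays read 6.63, 6.63 and 6.59 and the Pck1-CKO arrays 6.43, 6.44 and 6.46. The values within each group lay close together, and the log2 difference was -0.17 ± 0.04 (SE, n = 3 per group; limma adjusted p = 0.0466), a 1.13-fold lower signal. The call of Ctsa was lost in 11 of 18 alternatives, among them the scaling to each array's median and the fit without WT 3.

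The largest protease difference did not pass the test. Ctsl, cathepsin L, is a cysteine endopeptidase of broad specificity. It read 6.30, 6.35 and 6.39 in WT against 5.68, 5.71 and 6.14 on the Pck1-CKO arrays. The groups did not overlap, but Pck1-CKO 3 lay nearer to WT than the other Pck1-CKO arrays did. The log2 difference was -0.50 ± 0.13 (SE, n = 3 per group; limma adjusted p = 0.0677), and without Pck1-CKO 3 it was -0.65 and passed. That pass is no support, because the array left out was the one nearest to WT. Over the fits that each left out 1 array, the Ctsl change ran from -0.65 to -0.42. Ctsf, a cysteine protease, read 2.12, 2.08 and 2.14 in WT against 1.91, 1.87 and 1.99 on the Pck1-CKO arrays, with a log2 change of -0.19 ± 0.05 (limma adjusted p = 0.0682). Ctsk, cathepsin K, the collagen-degrading protease best known from osteoclasts, read 0.59, 0.53 and 0.36 against 0.20, 0.13 and 0.34. Its highest Pck1-CKO array came close to its lowest WT array, and its log2 change was -0.27 ± 0.09 (limma adjusted p = 0.103).

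Ctsz, cathepsin Z, a carboxypeptidase, had a small difference with narrow groups. It read 4.25, 4.24 and 4.23 in WT against 4.09, 4.14 and 4.16 on the Pck1-CKO arrays, a log2 change of -0.11 ± 0.04 (limma adjusted p = 0.118). Ctss, cathepsin S, processes the invariant chain in antigen-presenting cells. It read 2.83, 2.84 and 2.84 in WT against 3.16, 3.11 and 2.88 on the Pck1-CKO arrays, a log2 change of 0.21 ± 0.08 (limma adjusted p = 0.135). Pck1-CKO 3 lay just above the WT arrays and well below the other Pck1-CKO arrays. Without Pck1-CKO 3 the Ctss change was 0.30 and passed, which is no support, because the array left out was the one nearest to WT. Over the fits that each left out 1 array, the Ctss change ran from 0.16 to 0.30. The other 5 proteases (Ctsb, Ctsd, Ctsh, Lgmn and Tpp1) had changes between -0.089 and 0.056 with adjusted p between 0.227 and 0.97. For the aspartic protease Ctsd the interval of the log2 change at a 95% level was -0.13 to 0.07.

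Among the 10 glycosidases, which remove sugars from glycans and glycolipids, 1 rose and none fell, 10% beside 8.04% of all genes. The median log2 change was -0.049, and 6 of 10 were below 0. Gusb, which cleaves glucuronic acid from glycosaminoglycans, had the lowest p-value of all members. It read 1.78, 1.91 and 1.80 on the WT arrays against 2.41, 2.40 and 2.23 on the Pck1-CKO arrays. The lowest Pck1-CKO array exceeded the highest WT array by more than the whole range of either group. The log2 difference was 0.52 ± 0.07 (SE, n = 3 per group; limma adjusted p = 0.0237), or 1.43-fold, with an interval at the 95% level of 0.35 to 0.69.

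Idua, alpha-L-iduronidase, acts on the same glycosaminoglycans as Gusb and lay on the other side of 0 without passing. It read 4.74, 4.61 and 4.77 in WT against 4.52, 4.41 and 4.25 on the Pck1-CKO arrays, a log2 change of -0.32 ± 0.08 (SE, n = 3 per group; limma adjusted p = 0.0713). Its groups did not overlap, and Pck1-CKO 3 was the lowest array. Glb1, beta-galactosidase, read 4.55, 4.64 and 4.67 against 4.78, 4.87 and 4.72, a log2 change of 0.17 ± 0.06 (limma adjusted p = 0.112). Hexa, the alpha subunit of beta-hexosaminidase, read 2.75, 2.79 and 2.72 against 2.47, 2.46 and 2.70. Its Pck1-CKO 3 lay next to the WT arrays, and the log2 change was -0.21 ± 0.08 (limma adjusted p = 0.128). Without Pck1-CKO 3 the Hexa change was -0.29 and passed, which is no support, because the array left out was the one nearest to WT. Over the fits that each left out 1 array, the Hexa change ran from -0.29 to -0.17. The other 6 glycosidases (Gla, Man2b1, Naglu, Neu1, Gaa and Fuca1) had changes between -0.12 and 0.017, with adjusted p from 0.153 to 0.974.

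The 5 sulfatases remove sulfate groups from glycosaminoglycans and sulfatides, and 0 of 5 passed limma's test. At an unadjusted p under 0.05 there were 3, 60% of the sulfatases beside 31.2% of all genes. Their median log2 change was 0.19, and Arsa was the 1 member below 0. Galns, which removes sulfate from keratan and chondroitin sulfate, read 2.49, 2.38 and 2.38 in WT against 2.70, 2.63 and 2.60 on the Pck1-CKO arrays. Its groups did not overlap, and the log2 difference was 0.22 ± 0.05 (SE, n = 3 per group; limma adjusted p = 0.0573). Sgsh, the heparan N-sulfatase, read 5.36, 5.28 and 5.12 against 5.54, 5.50 and 5.62, a log2 change of 0.30 ± 0.07 (limma adjusted p = 0.0616). Arsb, arylsulfatase B, read -0.57, -0.77 and -0.63 against -0.42, -0.50 and -0.47, a log2 change of 0.19 ± 0.06 (limma adjusted p = 0.108). The WT arrays were the more scattered group for Sgsh and Arsb. Ids and Arsa, which act on heparan and dermatan sulfate and on sulfatide, had changes of 0.13 ± 0.08 and -0.095 ± 0.05 with overlapping groups. With each array's median in place of its 75th percentile, Sgsh, Galns and Arsb all passed as higher, and that scaling also placed 2434 of all genes higher.

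For the 6 genes of lipid breakdown and lipid binding 0 passed limma's test, with a median log2 change of -0.026. At an unadjusted p under 0.05 there were 2 (33.3%, beside 31.2% of all genes). Ppt1, which removes palmitate from proteins, read 3.67, 3.72 and 3.63 in WT against 3.43, 3.45 and 3.55 on the Pck1-CKO arrays. The groups did not overlap, and the log2 difference was -0.20 ± 0.05 (SE, n = 3 per group; limma adjusted p = 0.0641). The 2 dimmer Ppt1 probes, on the same transcript, had smaller changes of -0.05 ± 0.06 and -0.08 ± 0.06, with overlapping groups. Lipa, the acid lipase for cholesteryl esters and triglycerides, read 3.37, 3.37 and 3.46 against 3.12, 3.21 and 3.32. Its log2 change was -0.19 ± 0.06 (limma adjusted p = 0.118), with Pck1-CKO 3 close to WT. Asah1, Psap, Npc2 and Smpd1, which act on ceramide, sphingolipids, cholesterol and sphingomyelin, had changes between -0.041 and 0.073 with adjusted p from 0.288 to 0.912.

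Of the acid phosphatases, Acp5 rose and Acp2 did not pass. Acp5, tartrate-resistant acid phosphatase, is a marker of osteoclasts and of some macrophages. It read 5.25, 5.34 and 5.52 on the WT arrays against 5.70, 5.71 and 5.75 on the Pck1-CKO arrays. The Pck1-CKO arrays were nearly equal and all above the scattered WT arrays, with a log2 change of 0.35 ± 0.08 (SE, n = 3 per group; limma adjusted p = 0.04995), just inside the threshold. The call of Acp5 was likewise lost in 11 of 18 alternatives. Acp2, the lysosomal acid phosphatase, had a change of 0.12 ± 0.06 (limma adjusted p = 0.195) with overlapping groups.

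The 8 membrane proteins, channels and transporters showed the narrowest spread of the larger roles, from -0.092 to 0.16. None passed limma's test, with a median log2 change of 0.019 and 1 at an unadjusted p under 0.05 (12.5%, beside 31.2% of all genes). Npc1, which exports cholesterol from lysosomes with Npc2, read 1.20, 1.23 and 1.26 in WT against 1.38, 1.42 and 1.38 on the Pck1-CKO arrays. Its groups did not overlap, and the log2 difference was 0.16 ± 0.04 (SE, n = 3 per group; limma adjusted p = 0.0577). Lamp1 and Lamp2 are the major glycoproteins of the lysosomal membrane, and their groups overlapped. Lamp1 read 7.81, 7.74 and 7.73 against 7.80, 7.76 and 7.72, a log2 change of -0.00031 ± 0.04 (limma adjusted p = 0.997) with an interval at the 95% level of -0.11 to 0.11. Lamp2 read 4.86, 4.86 and 4.90 against 4.88, 4.96 and 4.96, a log2 change of 0.06 ± 0.04 (limma adjusted p = 0.385) with an interval of -0.05 to 0.16. Cd63, Scarb2, Mcoln1, Ctns and Cln3 had changes between -0.092 and 0.094 with adjusted p from 0.188 to 0.593.

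The regulators Tfeb and Grn did not pass the test. Tfeb read -0.65, -0.58 and -0.68 in WT against -0.57, -0.52 and -0.61 on the Pck1-CKO arrays. The groups overlapped, and the log2 change of 0.07 ± 0.05 (SE, n = 3 per group; limma adjusted p = 0.351) had an interval at the 95% level of -0.05 to 0.19. Tfeb is controlled largely by its phosphorylation and its place in the cell, which RNA does not measure. Grn, the precursor of the granulins, read 5.45, 5.42 and 5.38 against 5.56, 5.58 and 5.58. Both groups were tight and did not overlap, with a log2 change of 0.16 ± 0.04 (limma adjusted p = 0.0585).

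**Figure D3:**
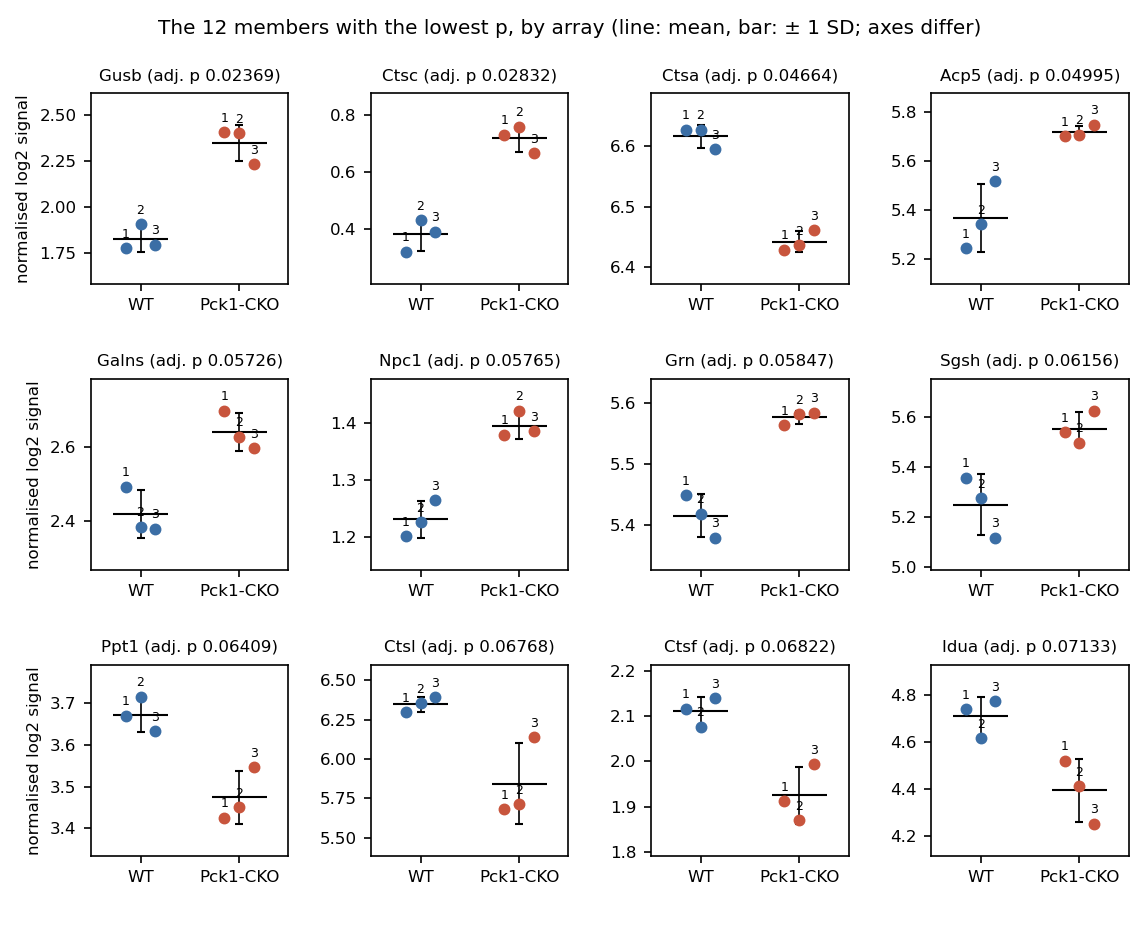
Normalised log2 signal on each array for the 12 members with the lowest p, 3 WT points (blue) and 3 Pck1-CKO points (red) in each panel, numbered by sample, with the group mean as a line and ± 1 SD as a bar; the vertical axes differ between panels. In every panel the groups do not overlap, as for 38.3% of all genes, but the panels were chosen by low p on these same arrays. In the Ctsl panel Pck1-CKO 3 (6.14) lies between Pck1-CKO 2 (5.71) and WT 1 (6.30).

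Members with and without the CLEAR core both had median changes close to 0. The 14 members with CACGTG in a window were Ctsa, Ctsd, Ctsf, Ctsl, Lgmn, Gla, Glb1, Naglu, Gaa, Sgsh, Arsa, Lamp1, Mcoln1 and Cln3. None of these rose and 1 fell (Ctsa), 4 of 14 were above 0, and their median log2 change was -0.033. Of the 26 members with a window and no core 3 rose and 0 fell, 15 were above 0, and their median was 0.027. The calls in both sets stand beside 8.04% of all genes called in either direction, and neither count lies far from that share. The 5 members whose windows hold TCACGTGA, printed above, all lay below 0, from -0.17 (Ctsa) to -0.03 (Ctsd), with a median of -0.092. With each array's median as the scale, Ctsd (0.044) and Mcoln1 (0.042) lay above 0. Gla and Ctsa each hold 2 copies of TCACGTGA, and their changes were -0.11 ± 0.07 and -0.17 ± 0.04. In the other Ctsa copy the core CACGTG begins at base 6 after the start. For Lamp1, with 4 cores, the change was -0.00031 ± 0.04. In all, 22 cores lay in member windows, 21 of them before the start and 14 within 100 bases before it. The counts are small and no test was made of the difference.

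Several members are read by more than 1 probe, which gives a second look at the same gene in the same samples. The array carries 67 probes for the members with signal above background, 28 members having 1 probe and 17 having several. Of the 22 further probes 16 had the sign of the brightest one. Adjusted over all 38366 probes, 3 member probes passed limma's test, beside 4.29% of all probes. They were the brightest Gusb and Ctsc probes and the second Arsb probe.

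The second Gusb probe, designed on another transcript, read 0.16, 0.11 and 0.09 in WT against 0.43, 0.42 and 0.33 on the Pck1-CKO arrays. The groups did not overlap there either, as for 35% of all probes, and its log2 change was 0.27 ± 0.05 (SE, n = 3 per group; limma adjusted p over probes = 0.0507), smaller than on the brightest probe. The second Arsb probe read -0.99, -1.18 and -0.93 against -0.61, -0.63 and -0.62, a log2 change of 0.41 ± 0.07 (limma adjusted p over probes = 0.0459). That is a larger change than on the Arsb probe that stands for the gene. The second Galns probe had a log2 change of 0.21 ± 0.05, close to the 0.22 of the first, with groups that did not overlap.

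For Ctsc and Sgsh the probes disagreed. Both dimmer Ctsc probes were designed on another transcript, and their groups overlapped. The first of them read -2.32, -2.26 and -2.52 in WT against -2.66, -2.68 and -2.48 on the Pck1-CKO arrays, a log2 change of -0.24 ± 0.09 (SE, n = 3 per group; limma adjusted p over probes = 0.17). The other had a change of -0.19 ± 0.28. The rise of Ctsc therefore rests on 1 of its 3 probes, and with the mean of a gene's probes its change was -0.031. The dimmer Sgsh probe had a log2 change of -0.14 ± 0.16 on the same transcript as the brighter one.

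Grn also had a probe apart from the rest (A_52_P508750). It read 3.86, 3.25 and 0.76 in WT against 2.88, 2.68 and 4.22 on the Pck1-CKO arrays, a log2 change of 0.64 ± 0.88 (SE, n = 3 per group). WT 3 lay far below and Pck1-CKO 3 above the other arrays of their groups. A range over the WT arrays at least as large as its 3.10 was found for 17 of 38366 probes (0.0443%), this probe itself among them. The third Grn probe had a change of -0.01 ± 0.05.

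**Figure D4:**
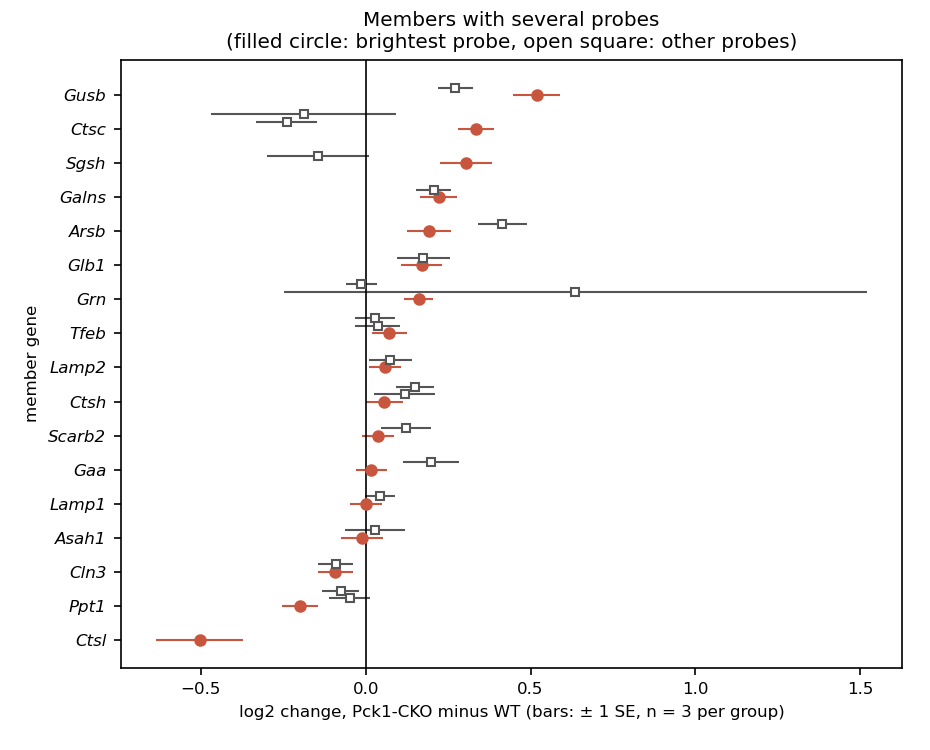
Log2 change, Pck1-CKO minus WT, of each probe of the 17 members with several probes, with bars of ± 1 SE (n = 3 arrays per group), a filled circle for the brightest probe and open squares for the others; the dim Ctsl probe, at -4.49, is left out of the plot. The probes of Gusb, Galns, Arsb and Glb1 lie on the same side of 0, those of Ctsc and Sgsh on both sides, and 1 Grn probe has the widest bar (0.88).

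The dim Ctsl probe (A_66_P130532), designed on the same transcript as the bright one, differed most of all member probes. It read -0.15, -0.30 and -0.23 in WT against -6.61, -6.31 and -1.23 on the Pck1-CKO arrays. All 3 WT arrays, and of the Pck1-CKO arrays Pck1-CKO 3 only, held it well above background. The WT mean was at least 46.3-fold above Pck1-CKO 1 and at least 47.0-fold above Pck1-CKO 2, each set against the lowest signal well above background on that array. It was 2-fold above Pck1-CKO 3. The fitted log2 change of -4.49 ± 1.45 (SE, n = 3 per group; limma adjusted p over probes = 0.123) is no bound, and did not pass. With normexp background correction the fitted change of the probe was -2.07 and passed (limma adjusted p over probes = 0.0254; 0.000778 to 0.303 over its alternatives). Whether the signal of either probe follows the amount of Ctsl RNA was not tested.

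The measured range over the 3 Pck1-CKO arrays was 5.38 on the log2 scale, with the values below background as given. A range at least as large was found for 6 of 38366 probes (0.0156%), the dim Ctsl probe itself among them. On the WT arrays the dim Ctsl probe lay within 0.147. On the bright probe too Pck1-CKO 3 lay between WT and the other Pck1-CKO arrays, with a far smaller difference, 6.30 to 6.39 in WT against 5.68, 5.71 and 6.14.

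The nearest tested genes on either side of Ctsl on chromosome 13, 8 on each side in the order of the RefSeq table, were read for the same pattern; they were chosen after the Ctsl values were seen. Of these 16 genes 1 passed limma's test, beside 8.04% of all genes. Slc35d2, a nucleotide sugar transporter, read 2.20, 2.24 and 2.36 in WT against 3.04, 3.04 and 2.67 on the Pck1-CKO arrays, a log2 change of 0.65 ± 0.11 (SE, n = 3 per group; limma adjusted p = 0.0349). Cdk20, a kinase gene next to Ctsl in that order, read 0.44, 0.44 and 0.34 against -0.58, -0.61 and 0.08, a log2 change of -0.78 ± 0.19 (limma adjusted p = 0.0626). The transcript 1810034E14Rik read -1.42, -1.36 and -1.08 against -3.03, -2.85 and -1.62, a log2 change of -1.21 ± 0.38 (limma adjusted p = 0.0998). In these 3 genes, as in Ctsl, Pck1-CKO 3 lay between the WT arrays and the other Pck1-CKO arrays. Such an order, with Pck1-CKO 1 and 2 on one side of the WT range, was found for 6 of the 16 neighbours, beside 18.3% of all genes tested and 16 of the 45 members. The cause was not tested.

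**Figure D5:**
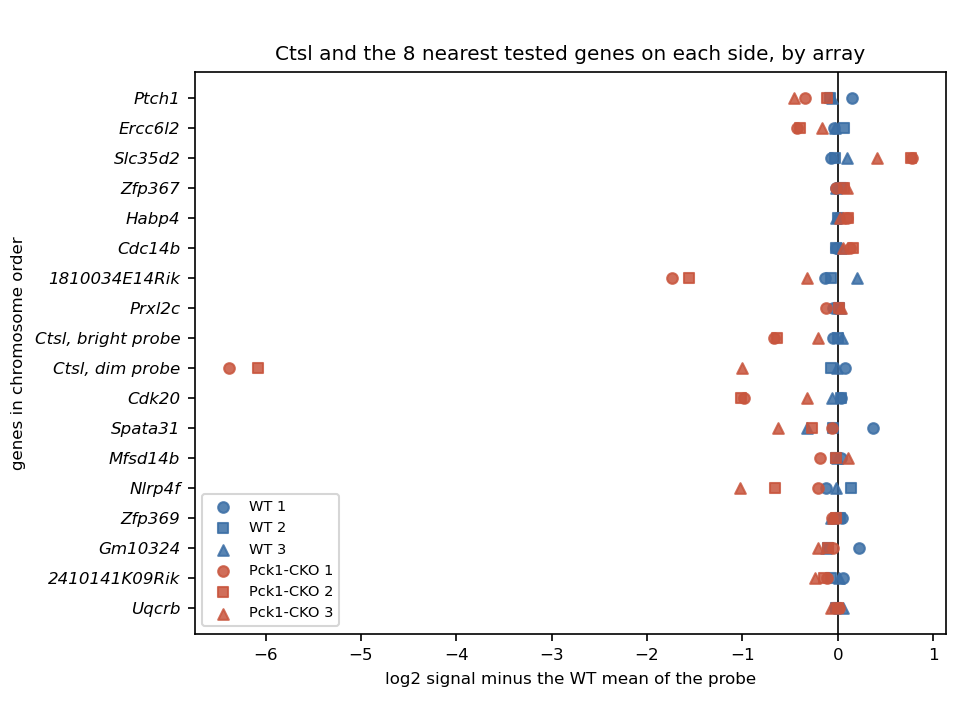
Normalised log2 signal minus the WT mean of the probe, by array, for both Ctsl probes and the 8 nearest tested genes on each side in chromosome order, with WT arrays in blue and Pck1-CKO arrays in red and a marker shape for each sample number. The Pck1-CKO 1 and 2 points of the dim Ctsl probe are not well above background, so that only their bounds, at least 5.53 and 5.55 below the WT mean, can be read, with Pck1-CKO 3 at -0.999, and Cdk20, 1810034E14Rik and Slc35d2 show Pck1-CKO 3 between the other Pck1-CKO points and WT.

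Other genes of the lysosomal pathway were counted in lists made without picking by change. Among 30 tested further hydrolases and cofactors 1 rose and 1 fell (6.67%, beside 8.04% of all genes), with a median log2 change of -0.0079. Galc, which cleaves galactosylceramide, rose by 0.28 ± 0.06 (SE, n = 3 per group; limma adjusted p = 0.0462), but with normexp by 0.18 without passing (limma adjusted p = 0.0788). Ctso, cathepsin O, read -2.10, -2.14 and -2.49 in WT against -2.75, -2.88 and -2.76 on the Pck1-CKO arrays, and fell by 0.55 ± 0.11 on the log2 scale (limma adjusted p = 0.0449). With normexp the change of Ctso was -0.34 and passed, but its call was lost in 7 of 18 alternatives, and that of Galc in 8. Of 33 further membrane proteins and transporters 0 passed limma's test, and the median was 0.015. At an unadjusted p under 0.05 there were 8 (24.2%, beside 31.2% of all genes). The lowest p there was that of Lamp3, with a change of 0.20 ± 0.05 (limma adjusted p = 0.0531). Of 28 genes for mannose 6-phosphate tagging and for sorting to lysosomes 1 rose and 0 fell (3.57%), with a median of 0.015. That gene was Ap3s1, a subunit of the AP-3 adaptor, with a change of 0.33 ± 0.05 (limma adjusted p = 0.0292). The call of Ap3s1 was lost in 6 of 18 alternatives.

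The lists next to the lysosome showed a few single calls. Of 24 MiT/TFE factors and genes of nutrient signalling 1 rose, the MiT/TFE factor Tfec, which read -0.63, -0.58 and -0.84 in WT against -0.25, -0.22 and -0.26 on the Pck1-CKO arrays. Its log2 difference was 0.44 ± 0.08 (SE, n = 3 per group; limma adjusted p = 0.0349), and the median of the list was 0.043. The call of Tfec was lost in 7 of 18 alternatives. The 1 call made up 4.17% of the list, beside 8.04% of all genes. Of 37 autophagy genes 4 rose and 0 fell, 10.8% beside 8.04% of all genes, with a median of 0.043. At an unadjusted p under 0.05 there were 8 above and 3 below, 29.7% of the list beside 31.2% of all genes. The 3 below were Optn (-0.19 ± 0.05), Map1lc3b (-0.13 ± 0.04) and Gabarapl1 (-0.14 ± 0.05), which did not pass limma's adjusted threshold. The ubiquitin-like protein Map1lc3a of the autophagosome rose by 0.42 ± 0.05 (limma adjusted p = 0.0196), and Atg16l1, which helps to attach such proteins to lipid, by 0.24 ± 0.04 (limma adjusted p = 0.03). The protease Atg4a had a change of 0.22 ± 0.05 (limma adjusted p = 0.0464), and its call was lost in 10 of 18 alternatives. Map1lc3a and Atg16l1 each lost theirs in 6. The fourth call was Becn1, just inside the threshold (limma adjusted p = 0.04995).

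Among 8 tested inhibitors of cathepsins and related proteases 1 rose (Serpina3n) and 2 fell, with a median log2 change of -0.028. The called share of 37.5% counts Serpina3n, whose call is no support as given below, and is not set against the background. Of the 7 inhibitors well above background on all 6 arrays 2 fell, beside 3.7% of all genes. Cst6, cystatin E/M, fell by 0.71 ± 0.10 on the log2 scale (SE, n = 3 per group; limma adjusted p = 0.0269), and Serpinb1a by 0.21 ± 0.04 (limma adjusted p = 0.0414). With normexp Cst6 changed by -0.17 and did not pass (limma adjusted p = 0.245), and its call was lost in 7 of 18 alternatives. Serpinb1a lost its call in 9 of 18, among them the scaling to each array's median. Serpina3n stood well above background on all 3 Pck1-CKO arrays and on 0 WT arrays. It thus passed the filter on dim probes only through the group where it is high, which makes its call no support, and with the filter on all 6 arrays it was not tested. Against the lowest signal well above background on each WT array it was at least 1.98-fold higher in Pck1-CKO.

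Marker genes of the cells that a whole kidney can hold were read beside these results. The counts below stand beside 8.04% of all genes that passed limma's test and 31.2% at an unadjusted p under 0.05. All 12 proximal tubule markers were well above background on every array, 0 of 12 passed limma's test with 2 at an unadjusted p under 0.05, and their summed signal relative to the 75th percentile was 1820 to 1910 in WT and 1820 to 1880 in Pck1-CKO. All 17 macrophage markers were detected on every array, and their sum was 70.0 to 74.0 in WT and 61.2 to 68.0 in Pck1-CKO. Of these 0 passed, and 10 had an unadjusted p under 0.05, 3 above and 7 below, the lowest p being that of Cybb (-0.29 ± 0.07; limma adjusted p = 0.0545). The brightest macrophage marker, Itgam, carried most of the difference between the sums, which therefore do not stand for the other markers. Itgam read 5.12, 4.93 and 5.06 in WT against 4.81, 4.71 and 4.52, a change of -0.36 ± 0.09 (limma adjusted p = 0.0677). Adipocyte markers, 8 of 9 of them well above background on every array, were higher on the arrays labelled Pck1-CKO, 4 of 9 rising, with a sum of 13.9 to 24.4 in WT and 74.5 to 102 in Pck1-CKO. WT 1 stood apart in several of them, reading -3.59 for Ucp1 against -0.47 and -0.70 in WT 2 and WT 3, and -2.96 for Adipoq against -0.03 and -0.70. Lymphocyte markers had a sum of 4.06 to 4.65 in WT and 3.29 to 3.58 in Pck1-CKO, 2 of 9 falling, and 2 of 5 podocyte markers fell, with a sum of 28 to 30.5 against 23.7 to 25.5. Of 8 markers of the loop, distal tubule and collecting duct 1 rose and 4 fell, with a sum of 478 to 491 in WT and 493 to 510 in Pck1-CKO. The brightest of these 8, Umod, made up most of that sum, which therefore does not stand for the other markers. Umod had a change of 0.14 ± 0.05 without passing (limma adjusted p = 0.121), while 5 of the 8 markers were below 0. None of 6 endothelial markers (sum 40.3 to 41.2 in WT and 36.2 to 39.1 in Pck1-CKO) and none of 5 fibroblast and mural markers (26.8 to 32.9 and 31.3 to 34.5) passed, with 2 and 1 at an unadjusted p under 0.05. The part of these cell types in the changes of the lysosomal genes was not tested.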

How the data were processed

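Each sample was 1 array of whole-kidney total RNA. The deposited scanner files hold intensity values from Agilent Feature Extraction 10.7.1.1, per the submitters' processing notes, with background already subtracted, per the file headers. A linear ratio makes up the series matrix that the authors deposited; it matched the scanner's processed signal divided by 1 factor per array to within 0.0381 on the log2 scale over the 14171 to 14175 probes per array with a matrix value of at least 1, dimmer ones not being compared, and served as an alternative. Its column medians were 0.105, 0.104 and 0.103 for the WT arrays against 0.1, 0.098 and 0.099.

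Spots with outlier flags (46 to 94 per array) were dropped, the log2 of the remaining processed signal was averaged per probe, and the 75th percentile of the array (528.9 to 583.1) was subtracted. Symbols came from RefSeq accessions in a GRCm38.p6 table: 34675 of 56605 probes had 1 symbol and 21930 none. A probe had to exceed background clearly on 3 or more of the 6 arrays; 38371 did, 25520 of them with a symbol, and a gene was read from its brightest probe without missing values. limma 3.58.1 in R 4.3.3 (lmFit, eBayes, 2-sided, no covariates) tested 17136 genes, and the same fit over probes gave probe values. The number of arrays limits precision. The code was tested on simulated data.

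The members, lists and roles were chosen with earlier results of these data known. Named in full were members that passed, the 15 with the lowest p that did not, and Tfeb, Lamp1, Lamp2 and Ctsl; of other lists up to 3 that passed, or the 1 with the lowest p. Alternatives changed the scaling, the background correction, the filter, the choice of probe, the variance model, array weights or flags, took the series matrix, added a replicate block or left out an array. Normexp (offset 50) had to use median signals. Same-numbered samples did not deviate together (correlations -0.00097, -0.11 and -0.023), so the numbers were not used as pairs.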

Additional observations from a re-analysis of the deposited data

How the results depend on the processing

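The main analysis called 3 members higher and 1 lower, and 743 and 634 of all genes. Quantile normalization moved the members' median log2 change to -0.026 with 3 members higher and 1 lower, Ctsf in place of Ctsa. With each array's median, 8 members were higher and 0 lower, 2434 of all genes were higher, the members' median was 0.075, the median of all genes was 0.085, and Cd63 turned to 0.029. Normexp gave 6 higher and 3 lower. With no filter on dim probes 0 members passed limma's test in either direction (19 at an unadjusted p under 0.05), and 61 and 81 of all genes, with 23781 genes tested. The mean of a gene's probes gave 2 higher and 0 lower, and Ctsc turned to -0.031. An eBayes trend gave 7 and 5 members and 1689 and 1133 of all genes, and array weights 11 and 9 members and 3285 and 2614 of all genes. The replicate block, although the numbers do not pair the samples, left 0 members (16 at an unadjusted p under 0.05) and 3 and 1 of all genes. Leaving out 1 array gave 0 to 3 members higher and 0 to 2 lower, 16 to 779 genes higher and 9 to 806 lower, and a members' median from -0.015 to 0.020. A sign change was counted only where the main change exceeded its standard error or a call was involved.

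Gusb lost its call in 6 of 18 alternatives, with changes from 0.40 to 0.59 and adjusted p from 0.00376 to 0.104. Ctsa and Acp5 lost theirs in 11 each, and Ctsl gained one in 4, with changes from -2.50 to -0.42. Except where stated, the cause was not tested. The precision is limited by 3 arrays per group, and of the dim Ctsl probe 2 Pck1-CKO values lie at background.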
